A study of Mus musculus with 8 samples.

Results

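Eya1, Tead1, Sox17, Tcf15 and Pknox1 encode transcriptional regulators best known from the embryo, and their transcripts were followed in adult mouse muscle made to contract for 4 h. The 5 genes were taken by their symbols in the probe annotation of the array. Each is read by 1 probe (5437 for Eya1, 4865 for Tead1, 6256 for Sox17, 4853 for Tcf15 and 7139 for Pknox1), so the set holds 5 of 10500 probes and 5 of 6370 genes with a symbol. The study itself singled out these genes on the same muscles, so their direction here is not independent evidence.

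Samples came from the fast hindlimb muscle extensor digitorum longus (EDL) of 4 male Swiss Webster mice, numbered 183, 197, 438 and 440. Each mouse gave 2 muscles: 1 EDL stimulated through its nerve for 4 h and the resting EDL of the opposite leg as contralateral control, in all 4 stimulated and 4 contralateral muscles. Transcripts were read on 1-colour CodeLink arrays as intensities on a linear scale normalized by the authors. A contralateral muscle shares the animal and its circulation with the stimulated one and is not an untreated mouse, and no age is given in the sources used here.

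As background, EYA1 is a coactivator with phosphatase activity that has no DNA-binding domain and works through DNA-binding partners. In mouse muscle it is known to favour the fast glycolytic fibre programme. TEAD1 binds MCAT elements in muscle genes and acts through VGLL cofactors and through YAP and TAZ. The Hippo kinases hold YAP and TAZ in check. SOX17, an HMG-box factor, directs endoderm and arterial endothelium. TCF15, also called paraxis, is a basic helix-loop-helix (bHLH) factor of the somites that also pairs with MEOX2 in the endothelium of heart and skeletal muscle. PKNOX1, also called PREP1, is a TALE homeodomain protein that binds DNA together with PBX partners.

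Sox17 and Eya1 rose in stimulated muscle, 3.01-fold and 2.42-fold. Tcf15 (1.84-fold), Pknox1 (1.51-fold) and Tead1 (1.44-fold) had higher means that did not pass the test. Each gene was higher on the stimulated side in each mouse, except Tead1 in mouse 197. The 5 genes were read in the same 4 mice and are not replicates of each other. In limma with mouse as a block, 2 of the 5 genes were higher at an adjusted p of 0.05 (Benjamini-Hochberg over 10406 probes), where 1.11% of all probes were. Of 9 processing alternatives Sox17 passed in 5 and Eya1 in 4, and each passed in 2 of 4 fits without 1 mouse. Groups did not overlap for 2 of the 5 genes, against 1.63% of probes with a stimulated range wholly above the contralateral range, and 4 of the 5 were higher in every mouse, against 8.57% of probes. In whole muscle, more cells of a type and more RNA per cell cannot be told apart.

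**Figure D1:**
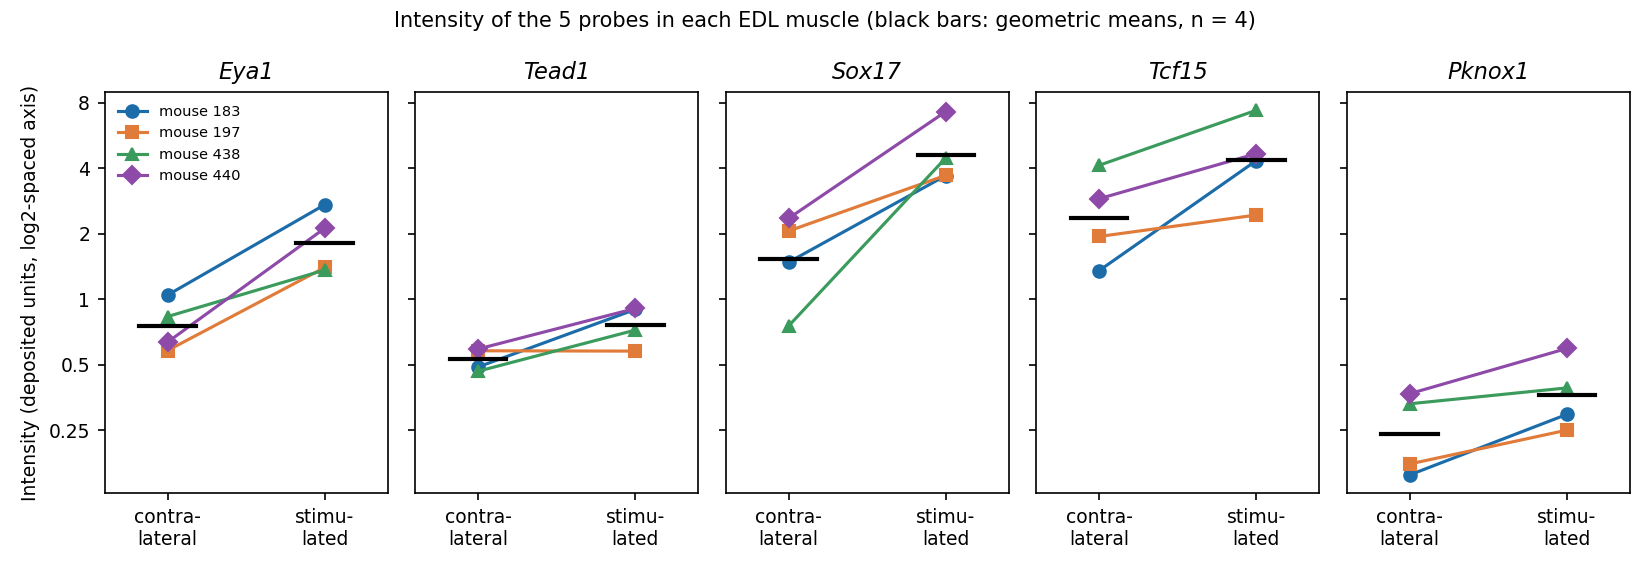
Intensity (deposited units, log2-spaced axis) of each gene's probe in the contralateral and stimulated EDL of each mouse, with lines joining the muscles of 1 mouse and black bars at the geometric mean of 4 muscles. The groups separate for Eya1 and Sox17 and overlap for Tead1, Tcf15 and Pknox1; levels are comparable within a panel, not between probes.

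Array medians lay between 0.90 and 0.94 intensity units, and 10367 to 10474 probes had a value per array. None of the 40 intensities of the 5 genes was missing, and none lay under 0.0937, the 5th percentile of positive values in the table, to which lower intensities were raised before log2. Over all tested probes the median log2 change was -0.14, so the 5 changes relative to that median are each larger by that amount. The 9 tested fast fibre genes were above that floor on all 8 arrays. Their mean log2 intensity was 9.62 to 10.45 in contralateral and 9.18 to 9.78 in stimulated muscle. All 5 tested slow fibre genes were above the floor too, so signal above the floor does not check the EDL label. Mean log2 intensity of the slow fibre genes was lower, at 2.41 to 3.51 in contralateral and 3.21 to 4.48 in stimulated muscle. Levels are not comparable between probes, so this difference is not a check of the label either. The arrays of mice 183 and 197 differ from those of mice 438 and 440, in that 56 probes have no value on any array of 183 and 197 alone and 25 have none on any array of 438 and 440 alone. Results are therefore also given within each pair of mice.

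Eya1, the coactivator, had contralateral intensities of 1.05, 0.582, 0.834 and 0.636 in mice 183, 197, 438 and 440. In the stimulated muscles of the same mice it stood at 2.72, 1.40, 1.36 and 2.12. The lowest stimulated muscle, that of mouse 438, was above the highest contralateral muscle, that of mouse 183, so the groups did not overlap. Means were 0.775 ± 0.211 (SD, n = 4) in contralateral and 1.90 ± 0.647 (SD, n = 4) in stimulated EDL. On the log2 scale the change was 1.27 ± 0.23 (limma's moderated SE, n = 4 mice, 95% interval 0.74 to 1.80), with a limma adjusted p of 0.0344.

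The rise of Eya1 was 2.60-fold in mouse 183, 2.41-fold in mouse 197, 1.64-fold in mouse 438 and 3.33-fold in mouse 440. Even the smallest of these, in mouse 438, exceeded the change of 90.9% of the probes in that mouse, and the others exceeded 96.6% to 97.6%. The probe lay near the middle of the brightness range, at the 53.9th percentile of mean log2 intensity. Within mice 183 and 197 the mean log2 change was 1.32 and within mice 438 and 440 it was 1.22. The difference between the pairs of mice was -0.10 ± 0.50 (SE; limma interaction, adjusted p 0.989). The call ended without mouse 183 (log2 change 1.24, adjusted p 0.181), without mouse 197 (1.27, adjusted p 0.14) and, narrowly, after quantile normalization (1.27, adjusted p 0.0662).

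Relatives of Eya1 among PAX, EYA and DACH factors had mostly negative values. Of 5 other tested genes 0 passed in either direction with limma, 0 had an unadjusted p under 0.05 and 0 passed in a paired test without moderation. Of all tested probes, 15.2% had an unadjusted p under 0.05, the share against which such counts are read here. Their median log2 change was -0.42, against -0.14 for all probes. The paralogue Eya3 had a log2 change of -0.43 ± 0.24 and Eya4 one of -0.42 ± 0.27, with Eya4 below the floor on 3 arrays. The DACH corepressors Dach1 (-0.33 ± 0.20) and Dach2 (-0.76 ± 0.39) also had negative values, whereas Pax3, a paired-box factor of muscle progenitors, had 0.27 ± 0.22. The difference between Eya1 and these genes was not tested. Among fast fibre genes, 0 of 9 passed with limma (6 at unadjusted p under 0.05, all lower; 0 without moderation), and the median was -0.49. That median was -0.08 after quantile normalization and -0.23 after cyclic loess.

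**Figure D2:**
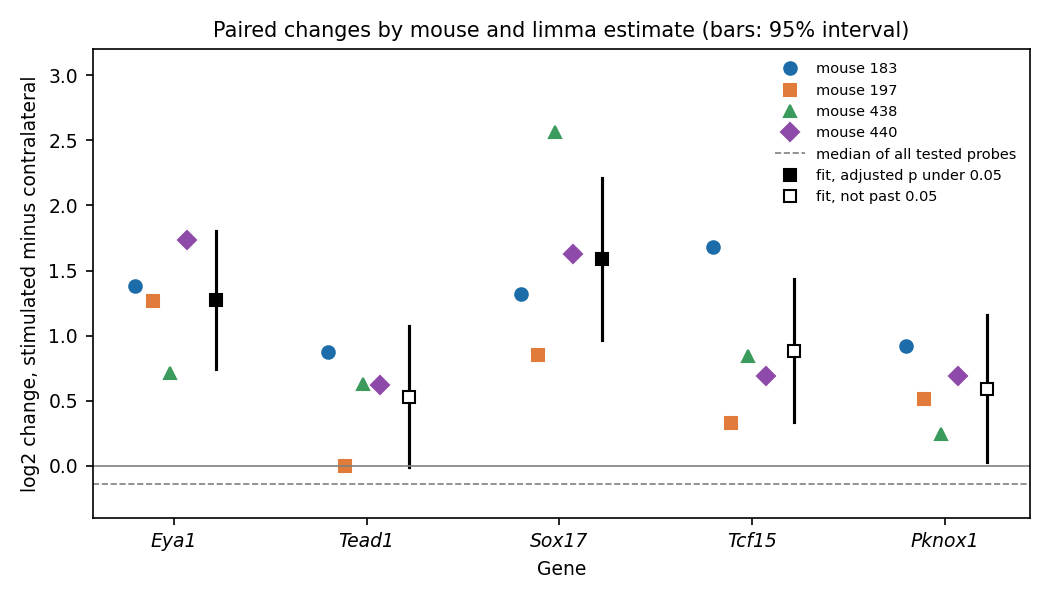
Log2 change (stimulated minus contralateral) of the 5 genes in each mouse (coloured symbols) and limma's estimate with its 95% interval (squares, filled where the adjusted p is under 0.05); the dashed line is the median of all tested probes. Sox17 in mouse 438 and Tcf15 in mouse 183 lie highest for their genes, and Tead1 in mouse 197 lies at 0.

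Tead1, the MCAT-binding factor, had contralateral intensities of 0.489, 0.581, 0.468 and 0.591 in mice 183, 197, 438 and 440. Its stimulated intensities were 0.899, 0.579, 0.723 and 0.908. The stimulated muscle of mouse 197 matched its own control and lay within the contralateral range, while the other 3 stimulated muscles lay above that range. Contralateral muscles were close together, with a highest-to-lowest ratio of 1.26, the smallest of the 5 genes. Means were 0.532 ± 0.0629 (SD, n = 4) and 0.777 ± 0.157 (SD, n = 4). The log2 change of 0.53 ± 0.24 (SE, n = 4, 95% interval -0.01 to 1.07) did not pass (limma adjusted p 0.335).

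Mouse by mouse, Tead1 was 1.84-fold, 1.00-fold, 1.54-fold and 1.54-fold of its control. Mouse 197 had a log2 change of 0 to 2 decimals, in the middle of its own distribution, where 56.9% of probes changed less. In mice 183, 438 and 440 the change exceeded that of 93.1%, 89.2% and 84.9% of probes. Without mouse 197 the change was 0.71, and it still did not pass (adjusted p 0.377).

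The paralogue, the cofactor and the Hippo genes tested beside Tead1 had changes of both signs, and Yap1 was the only cofactor tested. The paralogue Tead2 had a log2 change of -0.29 ± 0.26 and the coactivator Yap1 one of 0.26 ± 0.22, the only other tested genes of that list, and neither passed. Of 7 Hippo kinases and regulators 0 passed with limma (0 at unadjusted p under 0.05, 0 without moderation), with a median of 0.20. Values ran from 0.67 ± 0.30 for the kinase Stk4 and 0.59 ± 0.27 for Amotl2, an angiomotin that holds YAP, to -0.33 ± 0.17 for Limd1 and -0.45 ± 0.22 for the kinase Lats2.

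Known TEAD and YAP target genes had positive changes in 10 of 10 tested genes, and 0 passed over all probes with limma (4 at unadjusted p under 0.05, 0 without moderation). The list median was 1.04 against -0.14 for all probes, with per-mouse medians of 0.47, 1.37, 0.24 and 1.62 in mice 183, 197, 438 and 440. Without mouse 440 the list median was 0.62. One target passed in each of 3 smaller sets of mice: Ankrd1 without mouse 438, Birc5 without mouse 440 and Ccn2 within mice 438 and 440. The smallest p-values belonged to Birc5, an inhibitor of apoptosis (1.11 ± 0.27), the matrix protein gene Ccn2 (1.41 ± 0.35), the receptor kinase Axl (1.14 ± 0.39) and Gadd45b (1.25 ± 0.45). Ankrd1, a cardiac ankyrin repeat protein, was named after its values were seen: it had the largest value of the list at 1.92 ± 0.86, with -2.22 in mouse 438. The summed intensity of the list ran from 27.8 to 56.8 in contralateral and from 51.5 to 317 in stimulated muscle, ranges that overlap.

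Muscle genes listed by hand as having MCAT elements had changes of both signs, and the elements themselves were not checked here. Of 7 tested, 0 passed with limma (1 higher and 1 lower at unadjusted p under 0.05, 0 without moderation), and their median was -0.14, that of all probes. Creatine kinase Ckm had a log2 change of -0.54 ± 0.16, the natriuretic peptide gene Nppb one of 1.13 ± 0.42 with 1 array below the floor, smooth muscle actin Acta2 one of 0.35 ± 0.18 and the acetylcholine receptor subunit Chrne one of -0.31 ± 0.21.

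Sox17, the endoderm and arterial factor, had contralateral intensities of 1.48, 2.06, 0.755 and 2.35 in mice 183, 197, 438 and 440. Its stimulated intensities were 3.70, 3.71, 4.46 and 7.27. Every stimulated muscle was above every contralateral muscle. Means were 1.66 ± 0.705 (SD, n = 4) in contralateral and 4.79 ± 1.70 (SD, n = 4) in stimulated EDL. The log2 change of 1.59 ± 0.28 (SE, n = 4, 95% interval 0.97 to 2.21) had a limma adjusted p of 0.0265 and was the 83rd largest rise among 6315 tested genes.

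Contralateral levels of Sox17 lay further apart than stimulated ones, with highest-to-lowest ratios of 3.12 and 1.97. The rise was 5.91-fold in mouse 438, whose control was the lowest, 3.09-fold in mouse 440, 2.50-fold in mouse 183 and 1.80-fold in mouse 197. In mouse 438 it exceeded the change of 99.6% of probes. The SE of the 4 changes alone is 0.36, wider than limma's moderated 0.28, which borrows from probes of like intensity. Mean log2 changes were 1.09 in mice 183 and 197 and 2.10 in mice 438 and 440, a difference of 1.01 ± 0.48 (limma interaction, unadjusted p 0.0691, adjusted p 0.989). The call ended without mouse 183 (log2 change 1.68, adjusted p 0.126) and without mouse 438 (1.27, adjusted p 0.0753). For both Sox17 and Eya1 it also ended without mouse as a block (limma adjusted p 0.387 and 0.474), without moderation, without the intensity trend and at a floor of the 20th percentile.

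The 2 other SOXF factors had positive changes that did not pass. Sox18 had a log2 change of 0.65 ± 0.23, with 0.80, 0.03, 0.90 and 0.88 in mice 183, 197, 438 and 440. Sox7 had one of 0.99 ± 0.37, with 2.64 in mouse 440 and 0.23 to 0.75 in the others. All 3 SOXF genes were therefore higher on the stimulated side in every mouse, as were 8.57% of all probes, and only Sox17 passed. Sox17 is among the genes that the study singled out. Across the 16 other SOXF, arterial Notch and beta-catenin genes 0 passed with limma (3 at unadjusted p under 0.05, 0 without moderation), and the median was -0.01, with -0.14 without mouse 197 and 0.28 after cyclic loess. The Notch effector Rbpj had 0.70 ± 0.28 (n = 3 mice) and the Notch target Hes1 -0.43 ± 0.31.

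Endothelial markers stood on both sides of 0. Of 11 tested, 0 passed with limma (1 at unadjusted p under 0.05, 0 without moderation), 5 had positive changes, and the median was -0.18 against -0.14 for all probes. The sign of that median turned without mouse 183 (0.03), without mouse 197 (0.12), within mice 438 and 440 (0.07) and at a floor of the 20th percentile (0.02). The VEGF receptor Kdr had the smallest p, at 0.63 ± 0.19 and higher in 4 of 4 mice, followed by the sialomucin Emcn (0.44 ± 0.26), the cadherin Cdh5 (-0.53 ± 0.33) and the coreceptor Eng (0.31 ± 0.21). Summed marker intensity ran from 27.9 to 51.2 in contralateral and from 24.7 to 54.0 in stimulated muscle. No marker was below the floor on all arrays, Cdh5 was below it on 2 and Flt1 on 1. Per-mouse medians were -0.23, -0.01, 0.07 and 0.36 in mice 183, 197, 438 and 440.

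**Figure D3:**
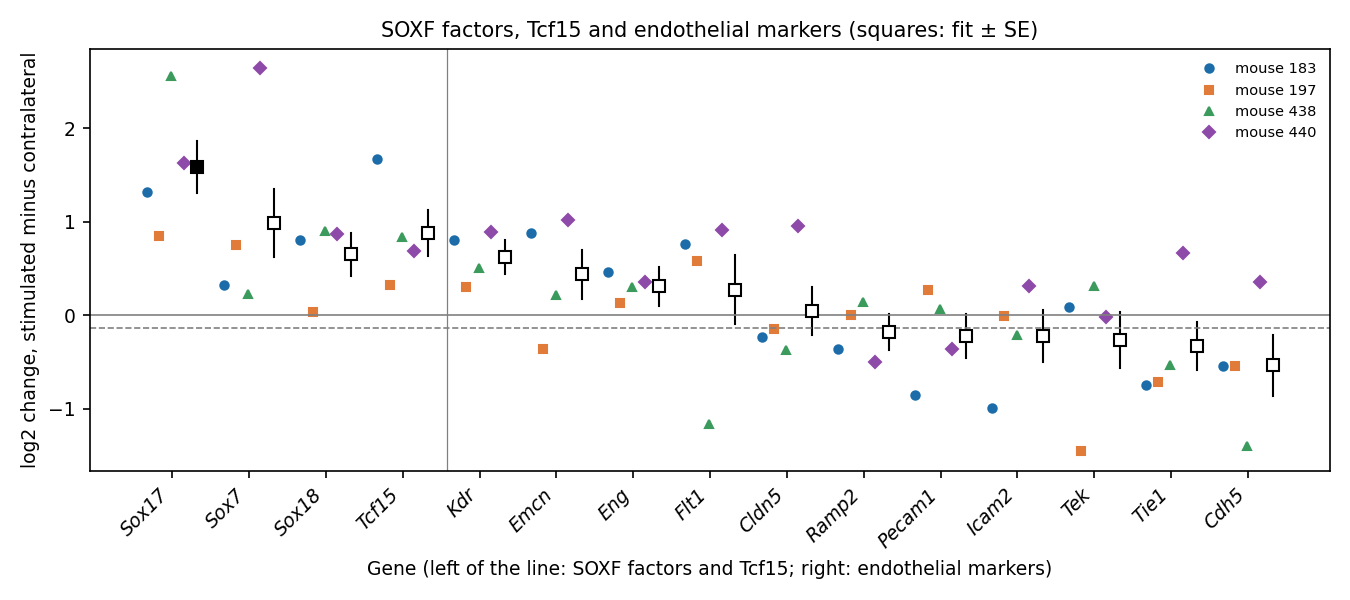
Log2 change (stimulated minus contralateral) by mouse for the SOXF factors and Tcf15 (left of the vertical line) and 11 endothelial markers (right), with limma's estimate ± SE as squares, filled where the adjusted p is under 0.05. Sox17 alone is filled, and the markers spread on both sides of the dashed median of all probes.

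Tcf15, the somite bHLH factor, had contralateral intensities of 1.35, 1.94, 4.12 and 2.90 in mice 183, 197, 438 and 440. Its stimulated intensities were 4.33, 2.44, 7.38 and 4.66. Each stimulated muscle was above its own control, but the stimulated muscle of mouse 197 was below the contralateral muscles of mice 438 and 440, so the groups overlapped. Mouse 438 was highest in both legs, and the highest-to-lowest ratio was 3.04 in contralateral and 3.03 in stimulated muscle. Means were 2.58 ± 1.21 (SD, n = 4) and 4.70 ± 2.04 (SD, n = 4).

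The log2 change of Tcf15 was 0.88 ± 0.24 (SE, n = 4, 95% interval 0.33 to 1.43) and did not pass over all probes (limma adjusted p 0.143). It was 3.20-fold of its control in mouse 183, 1.79-fold in mouse 438, 1.61-fold in mouse 440 and 1.25-fold in mouse 197. Only in mouse 183 was Tcf15 the most changed of the 5 genes, where it exceeded 98.4% of probes. Without mouse 183 its log2 change was 0.62.

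Across all probes, 1.34% passed with limma in either direction. Of 9 other bHLH partners and inhibitors of TCF15, 1 passed (1 at unadjusted p under 0.05, 0 without moderation). It was Id3, an inhibitor that sequesters the E proteins with which TCF15 pairs, which rose 2.12-fold (log2 change 1.08 ± 0.19, higher in 4 of 4 mice, limma adjusted p 0.0265). Id3 passed in 6 of 15 alternatives and lost its call without mouse 183, 197 or 438, within either pair of mice, without the mouse block and without moderation, among others. The E protein gene Tcf4 (0.17 ± 0.29) and the partner's paralogue Meox1 (0.29 ± 0.35) did not pass. Tcf21, a bHLH factor of muscle fibroblasts, had -0.37 ± 0.18, and the list median without Tcf15 was 0.06. Endothelial fatty acid uptake genes, among which are genes that MEOX2 and TCF15 are known to control in mouse heart, gave 0 of 4 past the threshold with limma (2 at unadjusted p under 0.05, 0 without moderation). The fatty acid binding proteins Fabp4 (0.66 ± 0.17) and Fabp5 (1.23 ± 0.33) had positive values, and the lipase Lpl (-0.34 ± 0.16) and the fatty acid receptor Cd36 (-0.45 ± 0.25) negative ones. Beside Tcf15 too, 0 of 11 endothelial markers passed (1 at unadjusted p under 0.05).

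Pknox1, the PBX partner, was dim on these arrays, at the 31.0th percentile of mean log2 intensity. Its contralateral intensities were 0.156, 0.175, 0.332 and 0.369 in mice 183, 197, 438 and 440, and its stimulated intensities were 0.296, 0.251, 0.392 and 0.595. Each stimulated muscle exceeded its own control. Mice 438 and 440 were above mice 183 and 197 in both groups, and the stimulated muscles of mice 183 and 197 lay below the controls of mice 438 and 440, so the groups overlapped. Means were 0.258 ± 0.108 (SD, n = 4) and 0.384 ± 0.153 (SD, n = 4).

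The log2 change of Pknox1 was 0.59 ± 0.25 (SE, n = 4, 95% interval 0.03 to 1.16), which did not pass (limma adjusted p 0.308). It was 1.90-fold, 1.43-fold, 1.18-fold and 1.61-fold of its control in mice 183, 197, 438 and 440. The SE over the 4 changes alone was 0.14, narrower than limma's moderated 0.25. Low intensities on these arrays also differed between mice: the 20th percentile of the contralateral arrays was 0.157, 0.166, 0.226 and 0.365, and that of the stimulated arrays 0.125, 0.158, 0.201 and 0.238. The part of this shift in the Pknox1 levels was not tested. Ranked within each array, Pknox1 stood at the 19.9th, 21.7th, 32.6th and 20.4th percentile in contralateral muscle and at the 34.0th, 29.7th, 36.6th and 42.7th in stimulated muscle, higher in 4 of 4 mice.

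Among 6 other TALE homeodomain genes 0 passed with limma (2 at unadjusted p under 0.05, 0 without moderation), and the median was -0.04. Meis3 (1.14 ± 0.44) and the repressor Tgif1 (0.94 ± 0.41) had the smallest p, with Tgif1 at 1.81 and 2.27 in mice 197 and 440 and below 0 in the other 2. Pbx2, which encodes a PBX partner, had -0.31 ± 0.21, and Meis1, whose protein binds the same partners, had -0.37 ± 0.28.

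**Figure D4:**
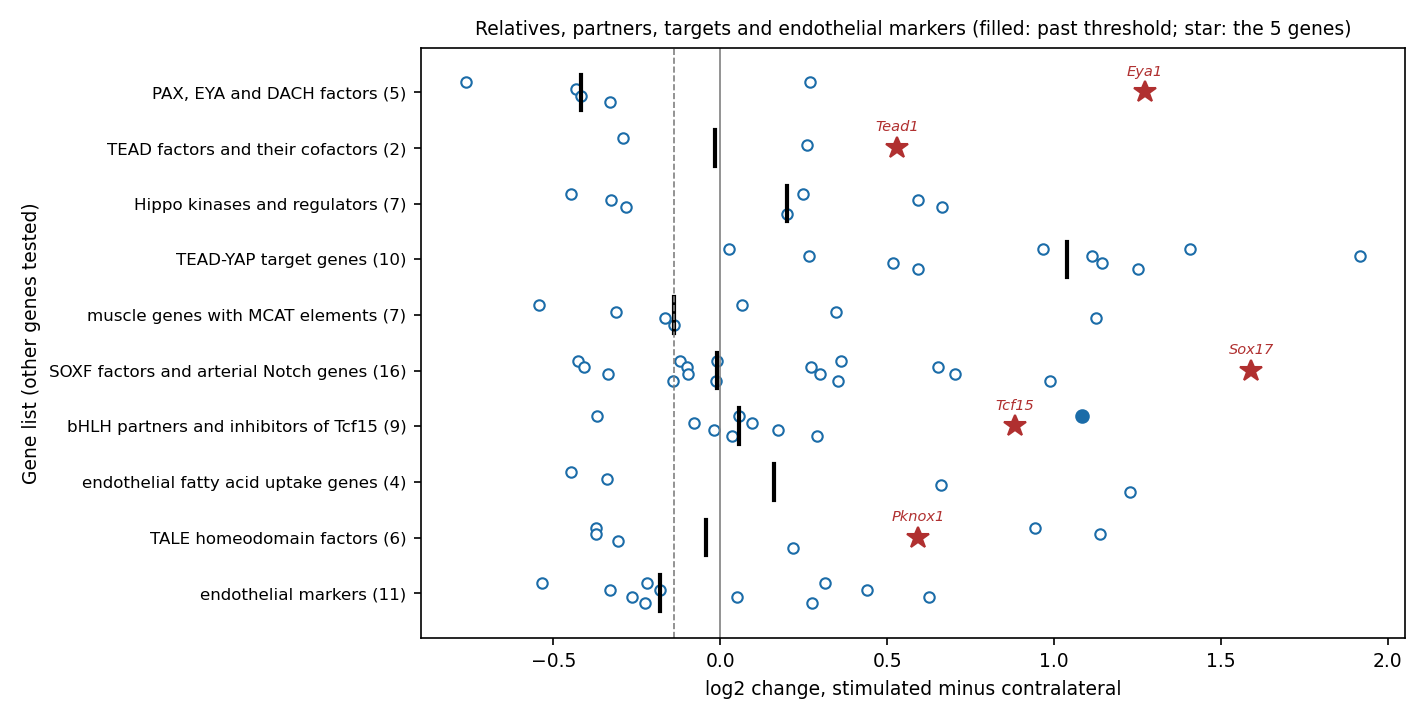
Log2 change (stimulated minus contralateral) of the relatives, partners and known targets of the 5 genes and of endothelial markers, 1 circle per gene (filled past the threshold), with black bars at list medians without the 5 genes, stars at the 5 genes and the dashed line at the median of all probes. Id3 is the filled circle, and the TEAD-YAP targets have the highest median, 1.04.

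Side by side, the 5 genes did not keep 1 order from mouse to mouse. Eya1 had the largest change of the 5 in mice 197 and 440, Sox17 in mouse 438 and Tcf15 in mouse 183. Tead1 had the smallest in mice 183, 197 and 440 and Pknox1 in mouse 438. Mouse 197 had the smallest change of Tead1, Sox17 and Tcf15, and mouse 438 that of Eya1 and Pknox1. With 4 mice an exact sign-flip test cannot go below a two-sided p of 0.125, which it reached for Eya1, Sox17, Tcf15 and Pknox1 and not for Tead1 (exact p 0.25). Interactions with the split of mice had a limma adjusted p of 0.989 for each of the 5, where 0% of all probes passed and 3.07% had an unadjusted p under 0.05.

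**Figure D5:**
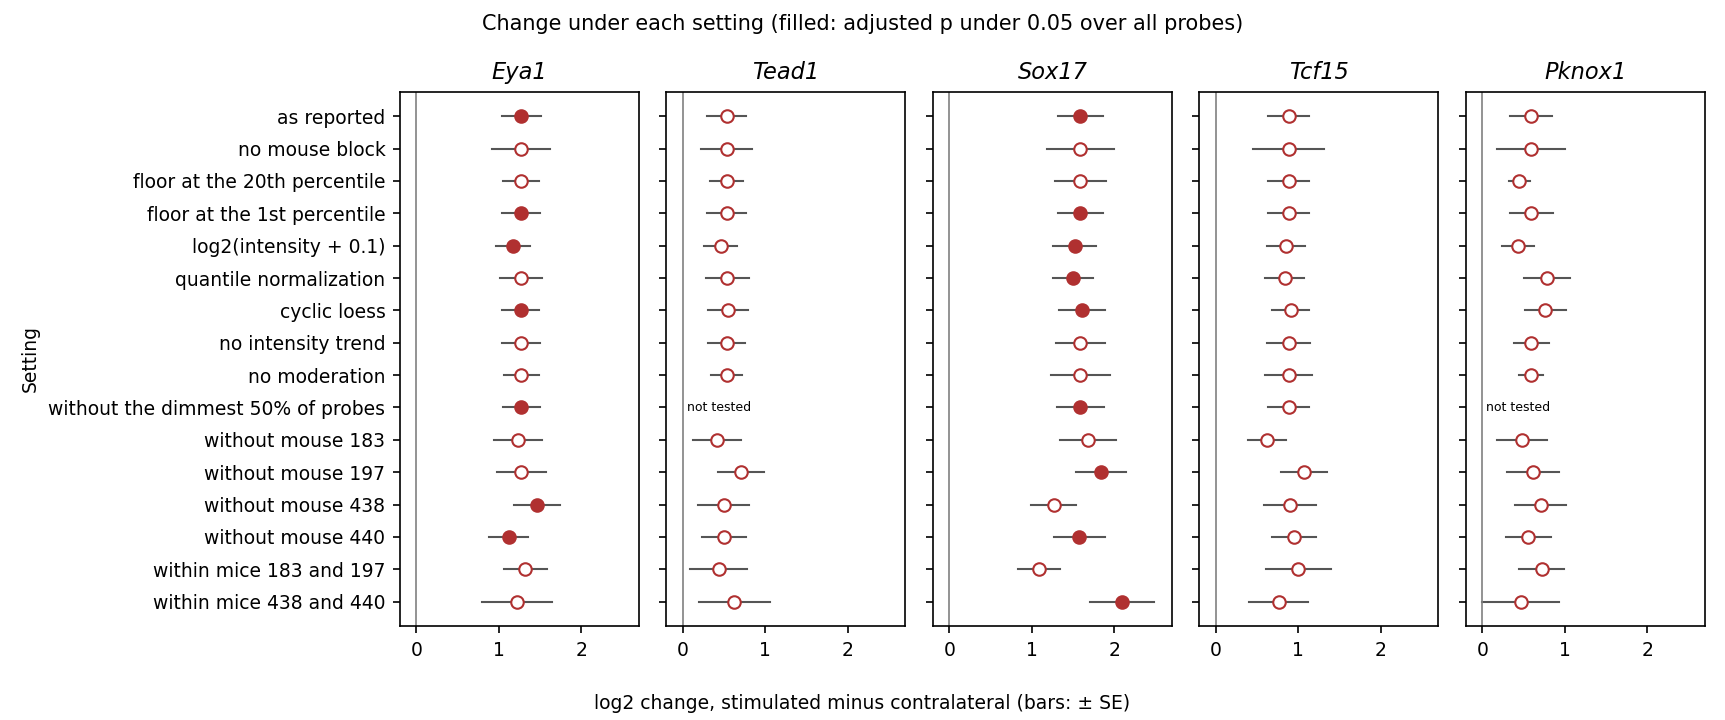
Log2 change (stimulated minus contralateral, bars ± SE) of the 5 genes under each processing setting and without each mouse, filled where the adjusted p over all probes is under 0.05. Sox17 and Eya1 are filled under part of the settings, and Tead1, Tcf15 and Pknox1 under none.

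Other cells of the muscle were read through lists of their markers. With limma, 0 of 7 mural cell, 0 of 5 fibroblast and 0 of 8 leukocyte markers passed (1, 1 and 2 at unadjusted p under 0.05, 0 of each without moderation), with medians of 0.02, 0.05 and -0.02. The leukocyte median was 0.69 without the dimmest 50% of probes and 0.41 without mouse 183. Leukocyte log2 changes ran from -0.61 to 1.64, with 4 of 8 positive and 3 markers below the floor on some array. The 2 leukocyte markers at unadjusted p under 0.05 were both higher. Of the 8, 1 passed with limma without mouse 440 and 1 within mice 438 and 440. Of 11 satellite cell markers 1 passed with limma (2 at unadjusted p under 0.05, 0 without moderation), where 1.34% of all probes did. It was the proteoglycan Sdc4 (2.16-fold, log2 change 1.11 ± 0.17, adjusted p 0.0164), and the list median was 0.36. Sdc4 also passed in 6 of 15 alternatives, and not without mouse 183, 197 or 438. The summed satellite list ran from 81.4 to 128 in contralateral and from 123 to 159 in stimulated muscle, with no marker below the floor on any array. Summed leukocyte markers ran from 18.9 to 112 and from 22.7 to 568, and those of mural cells from 24.9 to 47.6 and from 28.3 to 49.3. The part of any of these cells in the changes of the 5 genes was not tested. Slow fibre genes had a median of 0.67, with 0 of 5 past the threshold (3 at unadjusted p under 0.05, 0 without moderation), and 1 Schwann cell marker was tested (Pmp22, 0.52 ± 0.23).

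For likeness, log2 intensities of each gene were correlated over the 8 arrays with those of 5172 other genes that had complete values above the floor. The arrays pair up by mouse and share the contrast, so these coefficients are descriptions. Nearest to Sox17 were Tnfaip2 (r 0.96), Hif1a, the hypoxia-responsive factor (0.93), and Rcn1 (0.93). Tnfaip2 (0.93) was also nearest to Tead1, followed by the phosphatase Dusp6 (0.93) and the sialyltransferase St3gal4 (0.91). Eya1 was nearest to the kinesin Kif5c (0.93), the adhesion molecule L1cam (0.91) and the lamin Lmna (0.89). Of these, Tnfaip2 (log2 change 1.34 ± 0.26), Hif1a (2.02 ± 0.30) and L1cam (1.51 ± 0.25) passed in the limma fit, and they did so in 5, 9 and 7 of 15 alternatives. All were picked for likeness over the same 8 arrays, so their calls are not separate evidence. Of all probes, 1.11% passed as higher.

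Tcf15 and Pknox1 had more near neighbours than the other genes. For Tcf15 these were the repressor Bcl6 (r 0.96), Ccdc50 (0.96) and 1700001F09Rik (0.93), and 16 genes reached 0.9. For Pknox1 they were the peptidyl-prolyl isomerase Fkbp11 (0.98), the cohesin subunit Smc1a (0.98) and the actin regulator Arpc1b (0.98), and 86 genes reached 0.9. Eya1, Tead1 and Sox17 had 2, 5 and 7 such genes. Both Tcf15 and Pknox1 had higher contralateral means in mice 438 and 440 (3.51 and 0.350) than in mice 183 and 197 (1.65 and 0.166), and their coefficients include this difference between mice.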

How the data were processed

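Total RNA of 8 EDL muscles was turned into cRNA carrying biotin and read on CodeLink arrays, with 6 bacterial mRNAs added for intensity normalization, per the labels' protocols. The deposited intensity values were normalized by the authors on a linear scale; background correction and exact scaling are not given in the sources used here. Symbols were updated through Entrez identifiers with the gene table of GRCm38.p6, used for names only.

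Intensities were raised to a floor of 0.0937 and taken to log2. Probes with values in both muscles of at least 3 mice (10406) were fitted with limma 3.58.1 (R 4.3.3), blocking on mouse, with a trend in the variance prior, and p-values were adjusted (Benjamini-Hochberg) over all of them. The titles pair both muscles of a mouse, and deviations from group means correlated within each at 0.59, 0.64, 0.58 and 0.52. With the contralateral muscle of another mouse, the highest such correlation was 0.45, 0.34, 0.21 and 0.18 for the stimulated muscles of mice 183, 197, 438 and 440. The number of mice, 4, limits the precision. Simulated data with 200 changed of 10245 probes gave back 46.6% of 2-fold and 99.0% of 4-fold changes, and 7.33% of calls were false. The simulated noise was normal, independent between probes and drawn with the moderated variances that the fit assumes. These rates therefore check the fit and do not measure errors among the real calls.

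The genes, the 17 gene lists and the tests were chosen with earlier results of these data known. Lists use 1 probe per gene, the brightest. Named besides the 5 genes are list members past the threshold, up to 4 per list by smallest p, the 3 genes nearest in pattern to each gene, and members of counts of 5 or fewer. Genes that also sit in another list are Amotl2, Ckm and Pax3. Alternatives changed the block, floor, normalization, variance prior and filter and left out each mouse. Soleus muscle was not analysed here.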

Additional observations from a re-analysis of the deposited data

Results flagged for a closer look

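By Dixon's ratio on log2 levels, no muscle was flagged within its group of 4 for Eya1, Tead1, Sox17, Tcf15 or Pknox1. Stimulated Sox17 came nearest, at a ratio of 0.72. With 4 muscles per group the ratio has little power, and it was not applied to the paired changes. Among 123 groups of 4 muscles of these and 57 other named genes, 6 held a muscle far from the other 3 by Dixon's ratio, where chance alone gives about 1 in 20. On the log2 intensity scale these were Eya3 at 1.37 and Dusp6 at 2.42 in the stimulated muscle of mouse 197, Ankrd1 at 2.40 in the stimulated muscle of mouse 438, Cdh5 at -1.32 in the stimulated muscle of mouse 440, Tead2 at -2.88 in the contralateral muscle of mouse 197 and Tcf21 at 5.97 in the contralateral muscle of mouse 440.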

How the results depend on the processing

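All 5 genes kept a positive change under every alternative that tested them, and Tead1, Tcf15 and Pknox1 passed under none. Tead1 and Pknox1 were not tested without the dimmest 50% of probes. Over the alternatives that changed the processing and kept all mice, log2 changes ran from 1.17 to 1.27 for Eya1, 1.50 to 1.61 for Sox17, 0.83 to 0.91 for Tcf15, 0.46 to 0.55 for Tead1 and 0.43 to 0.79 for Pknox1. Without the mouse block (no replicate block), at a floor of the 20th percentile, with no intensity trend and with no moderation, neither Eya1 (log2 change 1.27) nor Sox17 (1.59) passed, and Eya1 also missed after quantile normalization (1.27). Adjusted p without the block was 0.474 for Eya1 and 0.387 for Sox17. Leaving out 1 mouse gave 1.12 to 1.46 for Eya1 and 1.27 to 1.84 for Sox17, each passing in 2 of 4 cases. Within mice 183 and 197 neither passed (1.32 and 1.09), and within mice 438 and 440 Sox17 passed (2.10) and Eya1 did not (1.22). Of all probes, 139 passed as reported, 1 without the mouse block, 0 with the floor at the 20th percentile (1296 at unadjusted p under 0.05), 0 without moderation (1208), 50 without the intensity trend, 7 to 176 with 1 mouse left out (7 without mouse 183, 67 without mouse 197), 0 within mice 183 and 197 (858) and 69 within mice 438 and 440. The cause of these shifts was not tested. Of the 5 genes Pknox1 lay nearest to the floor, at 3.15 times the floor on average, and the effect of this on its change was not tested.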
